A study of Equus caballus with 15 samples.

Results

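Transcripts of lysosomal hydrolases, lysosomal membrane proteins and the proton pump that acidifies the lysosome were followed in equine monocyte-derived macrophages. The members were the deposited rows whose gene symbol is one of 48 fixed symbols, with the cathepsins left out. Of the 48 symbols, 46 had a row among the 16932 genes, and CD63 and ATP6V0E1 were not analysed here. Of these 46, 45 had a mean of at least 1 CPM (reads of the gene scaled to a common library total) and were tested. ASAH1, the acid ceramidase, was not tested, since it had at most 14 reads in any library.

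Lysosomes break down material taken up by phagocytosis, endocytosis and autophagy. Their hydrolases work at acid pH, which is set by the V-ATPase, a pump whose V1 sector in the cytosol splits ATP and whose V0 sector in the membrane carries protons. TFEB, TFE3 and MITF are related transcription factors known to drive many lysosomal genes, and macrophages are rich in lysosomes.

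The macrophages were grown for 5 days in 30 ng/ml M-CSF from blood mononuclear cells of 2 geldings, 3 and 5 years old. Polyadenylated RNA was sequenced in 5 groups of 3 libraries. Untreated macrophages received no cytokine, and the 4 other groups received IL-1ß at 10 ng/ml for 24 h. In 3 of these an orthobiologic therapy (OT) was added at the same time as 25% of the culture medium. The first OT was MSC-CM, medium conditioned by bone marrow mesenchymal stromal cells. The second was PRP lysate, made by breaking the platelets of platelet-rich plasma. ACS, or autologous conditioned serum, was the last and is drawn from incubated blood. Each OT came from 3 donor horses aged 2 to 5 years, so OT libraries replicate the product. The study does not say whether the cells of the 2 geldings were pooled or which of them a library holds. The study used the same horses for all OTs, so the OT groups share donors, but the labels do not tie libraries of different OTs to a donor. The main model has no donor term, and PRP lysate against MSC-CM is also given with the replicate number as a block. Treatments were washed off after 24 h. The labels have the cells lysed for RNA at that point, whereas the text of the study describes a further day of culture before collection, and which of these applies to the libraries was not settled. The IL-1ß and untreated libraries are described by the study as technical replicates, so p-values measure only the spread between these libraries. The study set out to compare how the OTs change activated macrophages, and each OT was compared with IL-1ß alone, with the other OTs and with untreated macrophages. Comparisons that share a control group are not independent of each other.

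Between 28410734 and 47894068 reads were counted on genes per library, so a gene at 1 CPM had 28.4 reads in the shallowest. IL-1ß replicate 3 and PRP lysate replicate 1 stood apart from the other libraries, at -103 and -51.7 on a first principal component that held 55.4% of the variance. Several values are therefore also given without them. Summed CPM of 14 macrophage and monocyte markers ranged over 3877-5879 in untreated macrophages, 3992-6217 with IL-1ß, 4010-5239 with MSC-CM, 1804 to 3531 with PRP lysate and 3137 to 4595 with ACS. T cell markers were present in all groups, with sums of 662 to 950.1 CPM where untreated, of 902 to 1694 with IL-1ß alone, of 1255 to 1333 with MSC-CM, 870.3 to 1748 with PRP lysate and 791 to 992 with ACS. In bulk RNA, fewer cells of a type and less RNA per cell cannot be told apart.

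Most members that passed against IL-1ß alone encode soluble proteins of the lysosome, and all of them were lower with the OT. A member is said to have passed the test at an adjusted p of at most 0.05 in limma on log2(CPM + 1), with Benjamini-Hochberg adjustment over all 11628 genes tested. Of 45 members, 8 fell with PRP lysate and 4 of these (LGMN, FUCA1, HEXA and IDUA) fell with ACS, each against IL-1ß alone, and 0 rose. Over all genes tested, 3% passed as lower and 1.93% as higher with PRP lysate, and 1.68% and 1.77% with ACS. With MSC-CM against IL-1ß alone 0 members passed, beside 0% of all genes. The median log2 fold change of the members was -0.23 with PRP lysate and 0.00 with ACS, beside 0.11 and 0.13 over all genes, and with RLE size factors the medians of the members were -0.32 and -0.13 beside 0.02 and 0.01. Without IL-1ß replicate 3 the medians of the members were -0.34 and -0.20, beside -0.02 and 0.01 over all genes, and without PRP lysate replicate 1 the PRP lysate median was -0.07 beside 0.14. All PRP lysate libraries lay below all IL-1ß libraries for 12 members, beside 6.47% of all genes, and all ACS libraries did for 14, beside 11.2%. The heat map of the members shows where the calls lie.

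**Figure D1:**
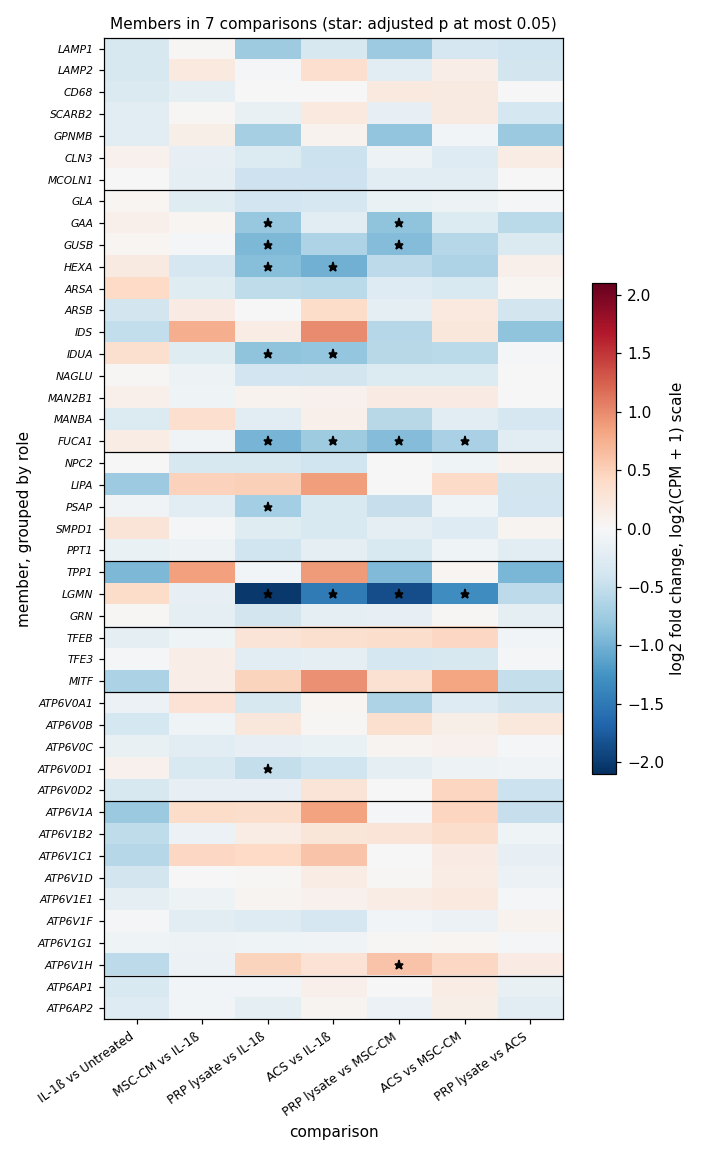
Each row is 1 of 45 members, grouped by role with black lines between groups, and each column is a comparison. Color is the log2 fold change on the log2(CPM + 1) scale (red higher, blue lower in the group named first), and stars mark an adjusted p of at most 0.05. Stars lie mostly on hydrolases in the columns that compare PRP lysate or ACS with IL-1ß or MSC-CM, and the columns for IL-1ß against untreated, MSC-CM against IL-1ß and PRP lysate against ACS hold none.

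LGMN, which encodes legumain, an asparaginyl endopeptidase that also matures other lysosomal proteases, had the largest fold change of the 45 members with PRP lysate and with ACS against IL-1ß alone. It lies on chromosome 24 from 35727550 to 35755795 (EquCab3.0). Its CPM were 2586, 2163 and 1874 in untreated macrophages and 2309, 2676 and 3729 with IL-1ß. They were 2626, 1941 and 3205 with MSC-CM, 541, 761 and 836 with PRP lysate, and 1309.7, 1037 and 785 with ACS. Every PRP lysate and ACS library was therefore below every library of the other 3 groups. The mean with PRP lysate was 24.5% of that with IL-1ß alone (log2 fold change -2.02, SE 0.252, limma adjusted p = 0.000448). With ACS it was 35.9% of it (log2 fold change -1.48, SE 0.252, limma adjusted p = 0.00713). Both calls held without each library of the 2 groups compared left out in turn. With only the 2 groups compared in the model, the LGMN call with PRP lysate was kept (limma adjusted p = 0.0379) and was the only member call against IL-1ß, and the one with ACS was lost (adjusted p = 0.0816).

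Against MSC-CM, LGMN fell by 1.85 on the log2 scale with PRP lysate (limma adjusted p = 0.000975) and by 1.31 with ACS (adjusted p = 0.0179). The call of ACS against MSC-CM was lost without MSC-CM replicate 1 or 3 or ACS replicate 2 or 3, and with edgeR (adjusted p = 0.0515). On the CPM as deposited, LGMN was the only member past the test at 2-fold or more with PRP lysate, against IL-1ß and against MSC-CM, where 3.09% and 2.61% of all genes were, and with ACS against MSC-CM, where 1.23% were. With PRP lysate against IL-1ß, FUCA1 and GUSB also passed at that size with TMM factors (log2 fold changes -1.06 and -1.03). With RLE size factors HEXA did too. The difference between PRP lysate and ACS in LGMN did not pass (log2 fold change -0.54, 95% interval -1.09 to 0.00058, limma adjusted p = 0.842), and was -0.36 without PRP lysate replicate 1.

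Of the 12 glycosidases and sulfatases, which remove sugars and sulfate groups from glycoproteins, glycolipids and glycosaminoglycans, 5 fell with PRP lysate and 3 with ACS against IL-1ß alone, beside 3% and 1.68% of all genes. Their median log2 fold change was -0.46 with PRP lysate and -0.37 with ACS, beside 0.11 and 0.13 over all genes. FUCA1, the lysosomal alpha-L-fucosidase (chromosome 2, 31201439 to 31213735), was at 119.9, 116 and 98.0 CPM in untreated macrophages, 121, 136 and 114 with IL-1ß and 122, 99.4 and 134 with MSC-CM. It was at 59.1, 68.5 and 59.2 CPM with PRP lysate and 83.9, 73.4 and 62.3 with ACS. The PRP lysate and ACS libraries overlapped each other and lay below all 9 others. FUCA1 fell to 50.4% of IL-1ß alone with PRP lysate (log2 fold change -0.98, SE 0.151, limma adjusted p = 0.002) and to 59.3% with ACS (log2 fold change -0.75, adjusted p = 0.017).

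Against MSC-CM, FUCA1 fell by 0.91 with PRP lysate (limma adjusted p = 0.00387) and by 0.69 with ACS (adjusted p = 0.0369) on the log2 scale. Both PRP lysate calls held without any 1 library. The ACS call against IL-1ß was lost without IL-1ß replicate 2 or ACS replicate 2 or 3, and the one against MSC-CM was kept only without MSC-CM replicate 2. The ACS call against MSC-CM was also lost with TMM factors, with RLE size factors and in edgeR.

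GUSB, beta-glucuronidase (chromosome 13, 18870258 to 18885635), was at 328, 287 and 219 CPM in untreated macrophages, 296, 309 and 244 with IL-1ß and 287, 222 and 318 with MSC-CM. With PRP lysate it was at 121, 156 and 162 CPM and with ACS at 193, 182 and 164. All PRP lysate libraries lay below all ACS libraries, and the ACS libraries lay below the remaining groups. It fell with PRP lysate to 51.7% of IL-1ß (log2 fold change -0.95, SE 0.181, limma adjusted p = 0.00775), also without any 1 library, and to 53.1% of MSC-CM (adjusted p = 0.0121), a call lost without MSC-CM replicate 1 or 3. With ACS it was at 63.4% of IL-1ß, which did not pass on the CPM as deposited (log2 fold change -0.65, limma adjusted p = 0.0719). It passed with TMM factors (log2 fold change -0.78, limma adjusted p = 0.0343), with RLE size factors, in edgeR (adjusted p = 0.0473), in DESeq2 and without IL-1ß replicate 3 and PRP lysate replicate 1 (limma adjusted p = 0.0199).

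HEXA, the alpha chain of beta-hexosaminidase (chromosome 1, 122110293 to 122134483), was at 275, 237 and 225 CPM in untreated macrophages, 233, 279.9 and 331 with IL-1ß and 232, 173 and 255 with MSC-CM. Its CPM were 121, 167 and 161 with PRP lysate and 148, 136 and 132 with ACS. The PRP lysate and ACS libraries overlapped, and all 6 were below all 9 others. HEXA fell with PRP lysate to 53.3% (log2 fold change -0.90, SE 0.178, limma adjusted p = 0.00979) and with ACS to 49.3% of IL-1ß alone (log2 fold change -1.002, adjusted p = 0.00899). HEXA and LGMN were the 2 members that fell by 2-fold or more with ACS, where 2.21% of all genes passed at that size. The HEXA call with ACS was lost without ACS replicate 3.

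GAA, the acid alpha-glucosidase that degrades glycogen (chromosome 11, 2828219 to 2843726), was at 103, 101 and 82.0 CPM in untreated macrophages, 107.4, 111 and 89.6 with IL-1ß and 106, 91.4 and 119 with MSC-CM. It was at 47.0, 71.3 and 58.6 CPM with PRP lysate and 92.2, 92.1 and 75.1 with ACS. Only the PRP lysate libraries stood below all the others. GAA fell to 57.5% of IL-1ß (log2 fold change -0.80, SE 0.173, limma adjusted p = 0.0165) and 55.8% of MSC-CM (log2 fold change -0.84, adjusted p = 0.0133) with PRP lysate. These calls were lost without IL-1ß replicate 2 or PRP lysate replicate 3, and without MSC-CM replicate 1 or 3.

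IDUA, the alpha-L-iduronidase of glycosaminoglycan breakdown (chromosome 3, 120929989 to 120956334), was at 61.4, 50.5 and 47.5 CPM in untreated macrophages, 52.1, 67.8 and 83.4 with IL-1ß and 64.3, 44.5 and 60.8 with MSC-CM. It was at 32.7, 37.7 and 40.2 CPM with PRP lysate and 40.7, 37.3 and 34.5 with ACS, with these 6 libraries below all others. It fell to 54.4% of IL-1ß with PRP lysate (log2 fold change -0.84, SE 0.191, limma adjusted p = 0.0213) and to 55.3% with ACS (log2 fold change -0.82, adjusted p = 0.0343). The IDUA calls were less stable. The PRP lysate call was lost without IL-1ß replicate 2 or 3 or PRP lysate replicate 1 or 2, and the ACS call was kept only without IL-1ß replicate 1.

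The other 7 glycosidases and sulfatases (GLA, ARSA, ARSB, IDS, NAGLU, MAN2B1 and MANBA) passed in no comparison in limma with all libraries. MANBA, beta-mannosidase, passed as lower with PRP lysate than in untreated macrophages in DESeq2 (log2 fold change -0.60, adjusted p = 0.0389). Without IL-1ß replicate 1, ARSA passed as lower with PRP lysate and with ACS than with IL-1ß, and NAGLU with ACS (limma adjusted p = 0.0464, 0.0351 and 0.0499). The plot of hydrolase CPM gives the libraries behind these values.

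**Figure D2:**
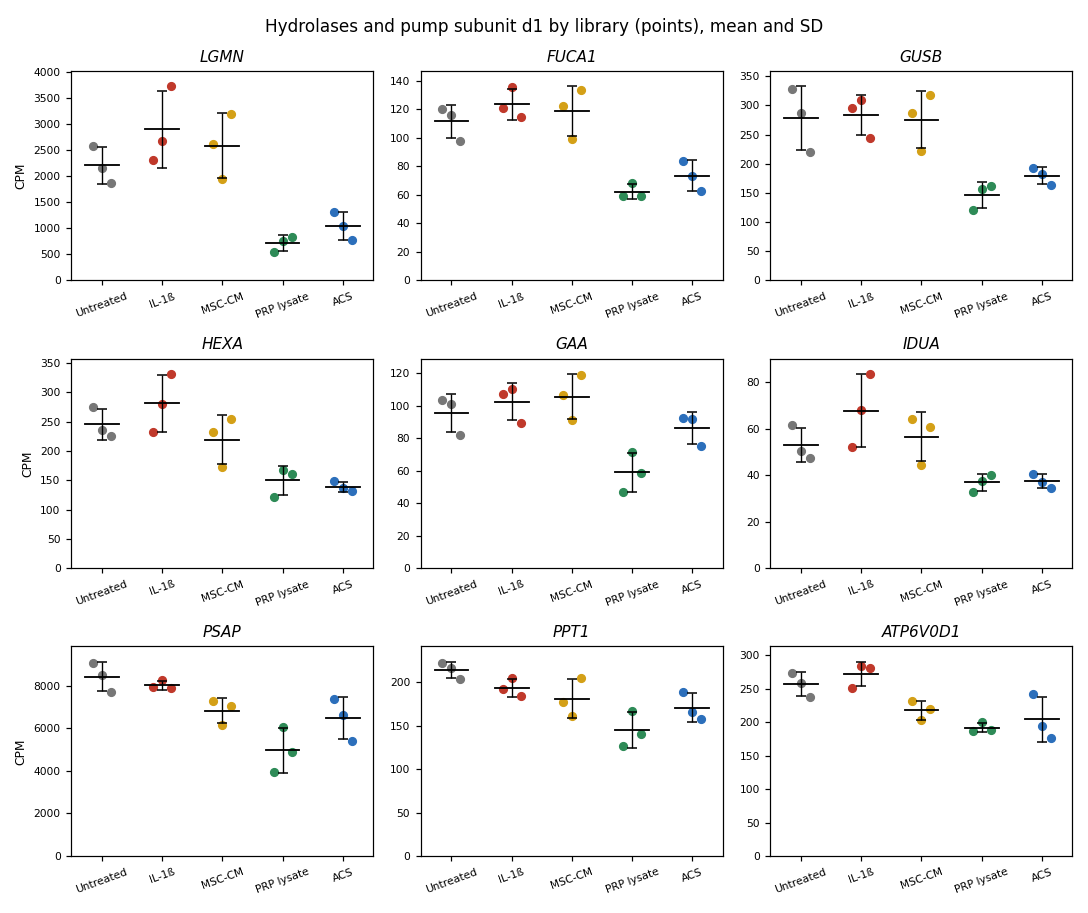
CPM (y axis, from 0) of 9 members in each of the 15 libraries, by group on the x axis; points are libraries, bars the group mean and whiskers the SD (n = 3). LGMN, FUCA1, GUSB, HEXA and IDUA are below all 9 untreated, IL-1ß and MSC-CM libraries in each of the 6 PRP lysate and ACS libraries. GAA is below them in all PRP lysate libraries and, with ACS, in replicate 3 only.

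Among the 5 tested genes of lipid breakdown and lipid transfer, PSAP was the member that fell with PRP lysate. PSAP encodes prosaposin, the precursor of activator proteins for sphingolipid hydrolases (chromosome 1, 60236179 to 60266224). It was at 9069.5, 8491 and 7701 CPM in untreated macrophages, 7924, 8261 and 7872 with IL-1ß and 7280.3, 6149.9 and 7042 with MSC-CM. It was at 3933, 6046 and 4902 CPM with PRP lysate and 7387, 6637 and 5399.7 with ACS. All PRP lysate libraries were below all IL-1ß, MSC-CM and untreated libraries but overlapped those with ACS. PSAP was at 61.9% of IL-1ß with PRP lysate (log2 fold change -0.71, SE 0.158, limma adjusted p = 0.0189), a call lost without IL-1ß replicate 2 or PRP lysate replicate 3.

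LIPA, the acid lipase that frees cholesterol from its esters, was at 225, 226 and 120 CPM with IL-1ß and 281, 346 and 394 with ACS. These groups did not overlap, but LIPA did not pass with all libraries (log2 fold change 0.88, limma adjusted p = 0.0836), and did without IL-1ß replicate 1 and in DESeq2. Without IL-1ß replicate 3, the lowest of its group, the log2 fold change was 0.58 (limma adjusted p = 0.236). NPC2 (cholesterol transfer), SMPD1 (acid sphingomyelinase) and PPT1 (palmitoyl-protein thioesterase) did not pass against IL-1ß in limma with all libraries. In DESeq2 PPT1 passed as lower with PRP lysate than with IL-1ß (log2 fold change -0.52, adjusted p = 0.0205). GRN (progranulin) and TPP1 (tripeptidyl peptidase) passed in no comparison.

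The membrane proteins LAMP1, LAMP2, CD68, SCARB2, GPNMB, CLN3 and MCOLN1 passed in no comparison in limma on the CPM as deposited with all libraries. LAMP1, a major glycoprotein of the lysosomal membrane, was at 1497, 1576 and 1222 CPM in untreated macrophages, 1396, 1314 and 786 with IL-1ß and 1056, 1005 and 1411 with MSC-CM. It was at 429.5, 909.97 and 770.2 CPM with PRP lysate and 986, 855 and 856 with ACS. IL-1ß replicate 3 was the lowest of its group, and it overlapped the PRP lysate libraries. The PRP lysate difference from IL-1ß was -0.75 on the log2 scale (SE 0.27, limma adjusted p = 0.149), and it passed in DESeq2 (log2 fold change -0.81, adjusted p = 0.0228). Without IL-1ß replicate 3 and PRP lysate replicate 1 it was -0.69 (limma adjusted p = 0.0212). Without IL-1ß replicate 3 alone it was -1.01 (limma adjusted p = 0.0361), and without PRP lysate replicate 1 alone it was -0.43 (adjusted p = 0.251). Against untreated macrophages, all of which lay above all PRP lysate libraries, it was -1.09 (SE 0.27, limma adjusted p = 0.0535). That difference passed with TMM factors (limma adjusted p = 0.02), with RLE size factors, in edgeR and in DESeq2. CD68, a glycoprotein of macrophage lysosomes, passed as lower with MSC-CM than in untreated macrophages with TMM factors (log2 fold change -0.62, limma adjusted p = 0.0411), with RLE size factors and in DESeq2 (adjusted p = 0.0005). In DESeq2, MCOLN1 passed as lower with ACS than with IL-1ß (log2 fold change -0.60, adjusted p = 0.0449). SCARB2 passed there as lower with PRP lysate than in untreated macrophages (log2 fold change -0.45, DESeq2 adjusted p = 0.0285).

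LAMP2, the other major membrane glycoprotein, was at 309, 317 and 264 CPM in untreated macrophages, 303, 260.2 and 160.3 with IL-1ß and 239.7, 257 and 313 with MSC-CM. It was at 158, 275 and 267 CPM with PRP lysate and 309, 293 and 289 with ACS. Its lowest libraries were IL-1ß replicate 3 and PRP lysate replicate 1, and the other 13 lay between 239.7 and 317 CPM. Against IL-1ß its log2 fold change was -0.04 with PRP lysate and 0.35 with ACS (SE 0.238 in both, limma adjusted p = 0.944 and 0.353). Without IL-1ß replicate 3 these values were -0.31 and 0.08, and without PRP lysate replicate 1 the PRP lysate value was 0.22 (limma adjusted p = 0.503), so its sign turned with the library left out. None of these passed.

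None of the 3 transcription factors passed in any comparison in limma with all libraries. TFEB was at 81.0, 75.6 and 106.7 CPM in untreated macrophages, 61.7, 82.0 and 87.3 with IL-1ß, 70.9, 71.4 and 71.5 with MSC-CM, 107.4, 95.3 and 76.0 with PRP lysate and 99.9, 84.7 and 105 with ACS. All PRP lysate and ACS libraries were above all MSC-CM libraries (log2 fold changes 0.36 and 0.43, SE 0.177, limma adjusted p = 0.383 and 0.305), and they overlapped those with IL-1ß. With only the ACS and MSC-CM libraries in the model, TFEB passed (limma adjusted p = 0.0361).

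TFE3 was at 62.2, 68.6 and 61.6 CPM in untreated macrophages, 78.7, 71.1 and 44.1 with IL-1ß, 61.2, 66.3 and 82.3 with MSC-CM, 46.6, 55.6 and 59.2 with PRP lysate and 54.8, 50.5 and 59.7 with ACS. The PRP lysate and ACS libraries lay below every untreated and MSC-CM library, with log2 fold changes against MSC-CM of -0.37 and -0.33 (SE 0.197, limma adjusted p = 0.458 and 0.522).

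MITF was at 113, 143 and 106 CPM in untreated macrophages, 124, 88.5 and 37.8 with IL-1ß, 62.2, 101 and 89.0 with MSC-CM, 82.4, 123 and 109 with PRP lysate and 108, 148 and 196 with ACS. ACS was above MSC-CM in all libraries (log2 fold change 0.82, SE 0.362, limma adjusted p = 0.34). With IL-1ß replicate 3 and PRP lysate replicate 1 left out of the model, MITF passed (limma adjusted p = 0.0271), where 14.2% of all genes did. Neither library is in these groups, so the fold change could not move and only the estimate of the spread changed. MITF also passed with only the ACS and MSC-CM libraries in the model (limma adjusted p = 0.0457).

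Of 15 tested pump members (5 of the V0 sector, 8 of the V1 sector and 2 accessory proteins), 1 fell with PRP lysate against IL-1ß alone, beside 3% of all genes that fell. This was ATP6V0D1, subunit d1 that links the sectors (chromosome 3, 18575749 to 18611429). It was at 274, 259 and 238 CPM in untreated macrophages, 251, 284 and 281 with IL-1ß, 232, 203 and 220.0 with MSC-CM, 188, 200.4 and 189 with PRP lysate and 242, 195 and 177 with ACS. All libraries of the 3 OTs were below all 3 IL-1ß libraries. With PRP lysate it was at 70.6% of IL-1ß (log2 fold change -0.50, SE 0.124, limma adjusted p = 0.0357). When 1 library was left out, this call was kept only without IL-1ß replicate 1. It was lost with TMM factors, with RLE size factors and in edgeR (adjusted p = 0.0721), and kept in DESeq2 (adjusted p = 0.0189). ATP6V0D1 and PSAP were the 2 members whose MSC-CM libraries all lay below those with IL-1ß alone, beside 1.54% of all genes (ATP6V0D1 log2 fold change -0.32, SE 0.124, limma adjusted p = 0.705).

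ATP6V1H, the regulatory subunit H of the V1 sector (chromosome 9, 30440967 to 30571493), was the member that rose in a comparison. It was at 599, 624 and 612 CPM in untreated macrophages, 447, 458 and 356 with IL-1ß, 374, 401 and 377 with MSC-CM, 479, 652 and 627 with PRP lysate and 533, 532 and 489.5 with ACS. The IL-1ß and MSC-CM libraries were all below those of the other 3 groups. With PRP lysate it was 152% of MSC-CM (log2 fold change 0.60, SE 0.132, limma adjusted p = 0.021), a call kept only without PRP lysate replicate 1 and lost with the replicate block. Against IL-1ß alone it was higher by 0.48 with PRP lysate (adjusted p = 0.0587) and 0.31 with ACS (adjusted p = 0.215) on the log2 scale, and neither passed in limma with all libraries. The PRP lysate difference passed in DESeq2 (log2 fold change 0.39, adjusted p = 0.0132) and in limma without PRP lysate replicate 1 (log2 fold change 0.61, adjusted p = 0.00958). The ACS difference was 0.19 without IL-1ß replicate 3 (limma adjusted p = 0.628).

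Against MSC-CM, 5 members passed with PRP lysate and 2 with ACS, where 4.22% and 1.92% of all genes passed. Those that fell with PRP lysate were LGMN, FUCA1, GUSB and GAA, where 2.78% of all genes fell, and ATP6V1H rose, where 1.44% did. Same-numbered MSC-CM and PRP lysate libraries had positively correlated deviations from their group means (0.635, 0.255 and 0.419 over genes). Replicates 2 and 3 of MSC-CM correlated more with another PRP lysate number (0.388 and 0.47). With the replicate block in all 12 numbered libraries, LGMN (limma adjusted p = 0.0109) and FUCA1 (adjusted p = 0.0399) passed. GUSB, GAA and ATP6V1H did not (limma adjusted p = 0.097, 0.0915 and 0.115), where 1.64% of all genes passed. With the block fitted in the 6 MSC-CM and PRP lysate libraries alone, a choice made after the data had been seen, LGMN, FUCA1, GUSB and GAA passed (limma adjusted p from 0.00213 to 0.0328), as did ATP6V0A1 of the V0 sector, which was lower (log2 fold change -0.65, adjusted p = 0.0475), where 5.56% of all genes passed. ATP6V1H did not pass there (limma adjusted p = 0.057). With ACS they were LGMN and FUCA1, both lower, where 1.1% of all genes fell. No overlap between groups, with the OT below MSC-CM, was seen for 11 members in each comparison, beside 12.1% of all genes with PRP lysate and 22.2% with ACS.

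IL-1ß itself changed no member past the test. Against untreated macrophages 0 of 45 members and 0.387% of all genes passed in limma, with 4 members (13% of all genes) at an unadjusted limma p under 0.05, 0 in edgeR and 1 in DESeq2. The member called by DESeq2 was ATP6V1H (adjusted p = 0.00234 in DESeq2 and 0.103 in limma, log2 fold change -0.55 in limma). All 8 V1 subunits had lower means on the log2 scale, except that ATP6V1F was at 0.023 with RLE and 0.0062 with TMM factors. Their median was -0.46 beside -0.07 over all genes, and -0.19 beside 0.06 without IL-1ß replicate 3, and none passed in limma with all libraries. All IL-1ß libraries lay below all untreated ones for 7 members, namely ATP6V1H, ATP6V1B2, ATP6V1D, ATP6V1E1, ATP6AP1, LIPA and CD68, or 15.6% of members beside 8.22% of all genes.

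The V1 subunits differed in how far their IL-1ß mean rested on replicate 3. ATP6V1A, the catalytic subunit, was at 500.0, 640.4 and 411 CPM in untreated macrophages, 582, 411 and 108 with IL-1ß, 320.1, 410.45 and 446 with MSC-CM, 184, 569 and 530.3 with PRP lysate and 563, 581 and 463 with ACS. Its log2 fold change with IL-1ß was -0.78 (SE 0.528, limma adjusted p = 0.535) with all libraries and -0.06 without IL-1ß replicate 3. ATP6V1H kept -0.43 without that library. When PRP lysate replicate 1 was left out as well, ATP6V1H passed against untreated macrophages (limma adjusted p = 0.0231).

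**Figure D3:**
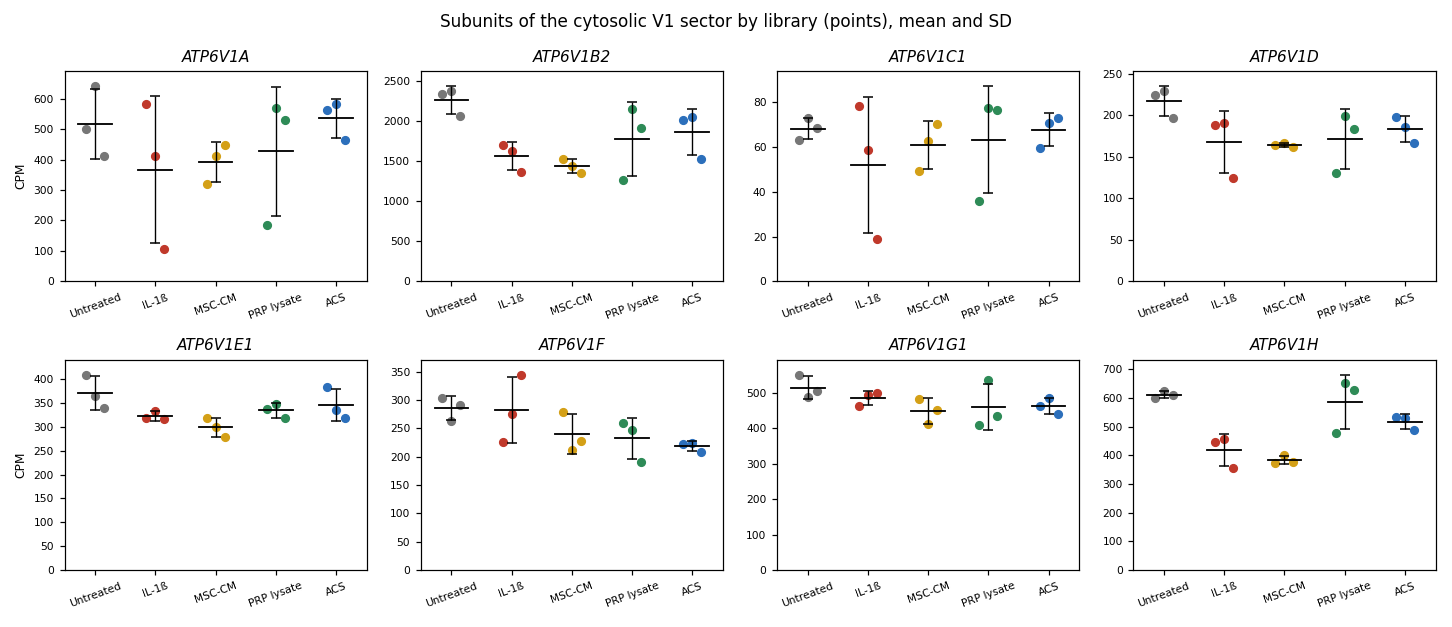
CPM (y axis, from 0) of the 8 V1 subunits in each library by group, with group means as bars and SD as whiskers (n = 3). ATP6V1H is low in all IL-1ß and MSC-CM libraries, whereas ATP6V1A and ATP6V1C1 have 1 low library each in the IL-1ß and PRP lysate groups, IL-1ß replicate 3 and PRP lysate replicate 1.

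With MSC-CM against IL-1ß alone, 0 of 45 members passed in limma, edgeR or DESeq2, and 1 member (ATP6V0D1) had an unadjusted limma p under 0.05, beside 5.6% of all genes. PRP lysate and ACS differed in 0 members by limma, edgeR and DESeq2, where 0.103% of all genes passed in limma and 3 members had an unadjusted limma p under 0.05, beside 5.19% of all genes. All PRP lysate libraries lay below all ACS libraries for 5 members (GAA, GUSB, IDS, LAMP2 and SCARB2), beside 8.97% of all genes. GAA had the smallest adjusted p of these (log2 fold change -0.56, SE 0.173, limma adjusted p = 0.501).

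The comparison of each OT plus IL-1ß with untreated macrophages was added after the data had been seen. With PRP lysate 5 members fell, beside 1.88% of all genes that fell. They were LGMN (log2 fold change -1.64, limma adjusted p = 0.00338), FUCA1 (-0.83, adjusted p = 0.0109), GUSB (-0.91, adjusted p = 0.0166), PSAP (-0.78, adjusted p = 0.0186) and PPT1 (-0.57, adjusted p = 0.0356). PPT1 was at 222, 216 and 204 CPM in untreated macrophages and 127, 167 and 139.98 with PRP lysate. Of these calls, LGMN held without any 1 library, and the other 4 were lost without untreated replicate 1 or 2 and, for GUSB, PSAP and PPT1, also without PRP lysate replicate 1. PSAP and PPT1 were lost without PRP lysate replicate 3 too, and PPT1 without untreated replicate 3.

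With MSC-CM, ATP6V1H was the 1 member that fell against untreated macrophages, beside 0.525% of all genes that fell (log2 fold change -0.67, limma adjusted p = 0.032). It was lost without any of the 6 libraries, although it passed in edgeR and DESeq2 (adjusted p = 0.0167 and 2.54e-09). With ACS 0 members passed in limma, where 0.473% of all genes did, while 17 members had an unadjusted limma p under 0.05, beside 7.65% of all genes. In DESeq2 4 members passed, and the share of all genes in DESeq2 is not reported here. Lower means on the log2 scale were seen in 42 of 45 members with PRP lysate, 38 with ACS and 34 with MSC-CM, beside 44.5%, 38.7% and 36.9% of all genes. The medians were -0.38, -0.22 and -0.20 beside 0.04, 0.08 and 0.10 over all genes, and without PRP lysate replicate 1 the PRP lysate median was -0.22 beside 0.09.

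**Figure D4:**
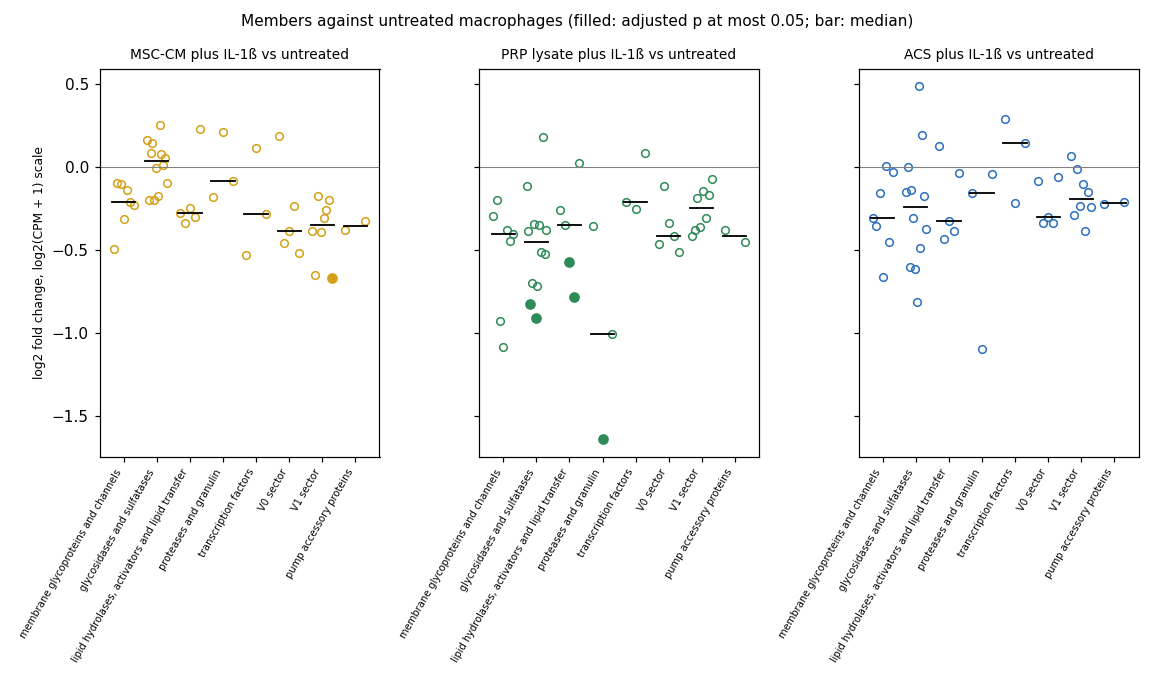
Log2 fold change (y axis, log2(CPM + 1) scale) of each member against untreated macrophages, with members grouped by role on the x axis, 1 panel for each OT plus IL-1ß. Filled points passed the test and bars are medians; most points lie below 0 in all panels, and 5 passed with PRP lysate, 1 with MSC-CM and 0 with ACS.

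Leaving out IL-1ß replicate 3 and PRP lysate replicate 1 together, a choice made after the data had been seen, kept the direction of the main results. In that setting LGMN fell by 1.64 with PRP lysate and by 1.28 with ACS against IL-1ß, and 9 and 6 members passed in place of 8 and 4, where 9.28% and 5.96% of all genes passed. LAMP1, SMPD1 and ATP6V1H (higher) were then past the test with PRP lysate, and IDUA and ATP6V0D1 were not. ACS against MSC-CM moved from 2 to 7 members, of which ATP6V1H and MITF were higher, and 14.2% of all genes passed there, so the members' share was near that of all genes.

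In IL-1ß replicate 3, 9 members were at least 2-fold below the mean of the other IL-1ß libraries and 0 were at least 2-fold above it, beside 27.6% and 4.46% of all genes, so large falls were no more frequent among the members. These 9 were TPP1, ATP6V1A, GPNMB, ARSB, IDS, ATP6V1C1, ATP6V0A1, MITF and ATP6V0D2. TPP1 was at 209, 109 and 17.1 CPM with IL-1ß and 20.7, 140.4 and 118 with PRP lysate, so the lowest library of each group was the one that stood apart. In PRP lysate replicate 1, 6 members were at least 2-fold below the other PRP lysate libraries, beside 14.9% of all genes. The same libraries had the highest T cell marker sums, 1694 and 1748 CPM beside at most 1333 in the other 13, and the lowest macrophage marker sums of their groups, 3992 and 1804 CPM. The part of these cells in the low values was not tested. Over the 45 members these deviations had a Pearson r of 0.88, beside 0.77 over all genes tested, as a description without a test since genes of a library share its depth and RNA. The 9 members low in IL-1ß replicate 3 had a median gene span, from gene start to gene end, of 47.4 kb, beside 15.4 kb for the other members. TPP1, the lowest of the 9, spans 5.09 kb. The spans of all genes were not examined, so this difference cannot be set against them.

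**Figure D5:**
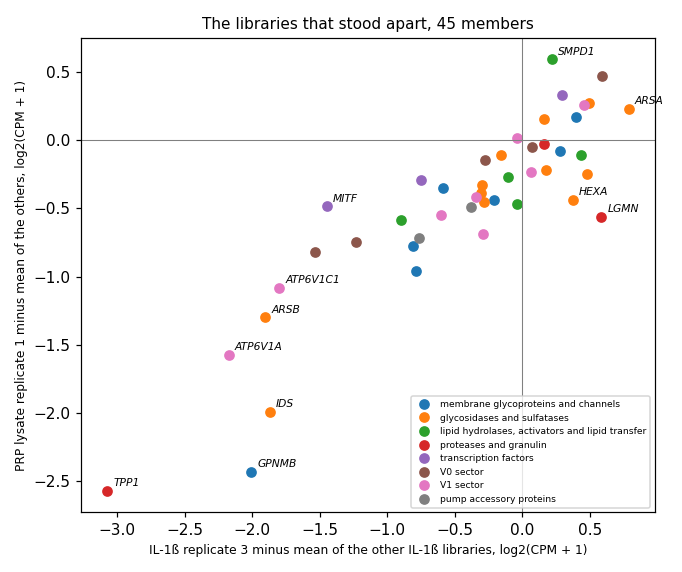
Each point is 1 of 45 members, colored by role. The x axis is its level in IL-1ß replicate 3 minus the mean of the other IL-1ß libraries and the y axis its level in PRP lysate replicate 1 minus the mean of the other PRP lysate libraries, both on the log2(CPM + 1) scale. TPP1, ATP6V1A, GPNMB, ARSB and IDS are low in both libraries, while LGMN and HEXA are above the mean in IL-1ß replicate 3 and below it in PRP lysate replicate 1.

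Other lysosomal genes were taken from lists of further hydrolases, transporters, sorting machinery, pump subunits, nutrient sensing, tethering and autophagy genes. Of 203 genes 179 were tested. With PRP lysate against IL-1ß alone 0 rose and 11 fell (6.15% passed), where 1.93% of all genes rose and 3% fell. With ACS 1 rose and 7 fell (4.47% passed), where 1.77% of all genes rose and 1.68% fell. CREG1, a lysosomal glycoprotein, was at 599.6, 600.2 and 308 CPM with IL-1ß and 115, 267 and 237 with PRP lysate (log2 fold change -1.31, SE 0.322, limma adjusted p = 0.0332). AP1B1, a subunit of the AP-1 adaptor that sorts hydrolases at the trans-Golgi network, was at 286, 285 and 241 CPM with IL-1ß, 139.6, 151 and 161 with PRP lysate and 187, 169.96 and 163 with ACS. Both groups lay below IL-1ß, with log2 fold changes of -0.84 (limma adjusted p = 0.00229) and -0.64 (adjusted p = 0.0202). ABCD4 and SLC66A1, transporters of the lysosomal membrane, fell with both PRP lysate (log2 fold changes -1.06 and -0.88, limma adjusted p = 0.00425 and 0.00653) and ACS (-0.78 and -0.83, adjusted p = 0.0368 and 0.0154).

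ACP5, the tartrate-resistant acid phosphatase, and PLD3, an endolysosomal nuclease, fell with ACS (log2 fold changes -0.93 and -0.84, limma adjusted p = 0.0213 and 0.0256), and PLBD1, a phospholipase B-like protein, rose (0.69, adjusted p = 0.0329). Against IL-1ß alone, 5 of 14 macrophage markers fell and 0 rose with PRP lysate, where 3% of all genes fell. With ACS 2 fell and 0 rose, where 1.68% of all genes fell. The medians with PRP lysate and ACS were -0.99 and -0.37 on the log2 scale. MRC1 made up much of the summed CPM of this list (3394 of 6217 in IL-1ß replicate 1). The markers did not move alike. CD163 was at 685, 638 and 365 CPM with IL-1ß and 7.34, 13.3 and 13.4 with PRP lysate. TYROBP was at 255, 306 and 375 CPM with IL-1ß and 246, 292 and 238 with PRP lysate, and these overlapped. With PRP lysate 3 of the 14 also fell against MSC-CM (median -0.93) and 4 against untreated macrophages (median -0.85), and with ACS 1 fell against MSC-CM (median -0.27) and 0 against untreated macrophages (median -0.53). Of 7 T cell markers 0 passed with PRP lysate or ACS against IL-1ß alone. Against untreated macrophages 1 of the 7 rose with MSC-CM (median 0.82), and 0 passed with PRP lysate (median 0.60) or ACS (median 0.19). Osteoclast and giant cell markers summed to 13121-16993 CPM with PRP lysate and 10875-14715 with ACS, beside 9970-11282 with IL-1ß alone, and of 5 tested 2 rose and 1 fell with PRP lysate and 1 rose and 1 fell with ACS. MMP9 made up most of this sum. Endothelial markers summed to 52.5-81.7, 101-131 and 246-504 CPM in the same order, and of 3 tested 1 fell with PRP lysate and 1 with ACS. PECAM1, which leukocytes also express, made up most of this sum, while CDH5, a defining endothelial gene, was at 2.47, 8.03 and 7.88 CPM with PRP lysate and 1.53, 2.83 and 1.76 with IL-1ß. Neutrophil markers summed to 486-546, 530.2-759 and 309-391 CPM, and CSF3R, the 1 tested, rose with ACS. CSF3R made up nearly all of this sum, while MPO, ELANE and LTF were under 1 CPM in all PRP lysate and ACS libraries. NK cell markers summed to 386-905 CPM with PRP lysate and 260-543 with IL-1ß alone, and 1 of 6 rose with PRP lysate. Dendritic cell markers summed to 159.9-312 and 179-212 CPM, with 1 of 3 tested lower with PRP lysate and CLEC9A and XCR1 under 1 CPM in all libraries. No B cell or platelet marker passed in either comparison. The part of these cell types in the results was not tested. Whether the share of macrophages in the cultures had a part in the lower hydrolase levels was not tested.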

How the data were processed

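RNA of equine macrophages in 5 groups of 3 libraries was analysed. The authors trimmed reads at a Phred score of 20, used STAR 2.7.3 against EquCab3.0 and HTSeq within Partek Flow, and deposited CPM, that is counts scaled to a common library total. The strand setting is not given in the sources used here, so antisense and overlapping genes are uncertain. The CPM of 16932 listed genes summed to between 982495 and 991421 per library. Whole reads were recovered from the deposited CPM, and 99.7% of values were whole within 0.1 read.

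Groups came from the sample labels, and ACS replicates were numbered in accession order. The 11628 genes whose mean reached 1 CPM entered limma 3.58.1 (R 4.3.3), with an intensity trend on log2(CPM + 1), all 15 libraries and 5 groups in 1 model, without a replicate block. Same-numbered MSC-CM and PRP lysate libraries had correlated deviations from their group means (0.635, 0.255 and 0.419 over genes, all over 0.1), so their numbers were taken to pair them, although the labels do not say what a number marks and replicates 2 and 3 of MSC-CM correlated more with another PRP lysate number (0.388 and 0.47). In each of the other pairs of numbered groups at least 1 correlation was below 0. Log2 fold changes on this scale understate the change of low genes. Benjamini-Hochberg adjustment was over all genes within each comparison, and an adjusted p of at most 0.05 counted as passed. SE and 95% intervals are those of the moderated test.

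Per-library values are given for members that passed in any of 7 planned comparisons (up to 8 a comparison and all at 2-fold), and for TFEB, TFE3, MITF, LAMP1, LAMP2, ATP6V0D1 and ATP6V1A whatever the test gave. Values of LIPA, TPP1 and PPT1 were chosen after they were seen. Of the other lysosomal genes, up to 2 rises and 2 falls per list and comparison among those that passed could be named. The members and lists were chosen with earlier results of these data known.

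Alternatives were TMM and RLE factors, a pseudocount of 0.1, no filter, edgeR 4.0.16 and DESeq2 1.42.0 on recovered reads, the 2 groups alone, a 2-fold threshold, the replicate block and leaving out each library. Steps were tested on simulated data. Figures were drawn with Python 3.11.15 and matplotlib 3.10.9. Motifs in promoters and sequences were not analysed here.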

Additional observations from a re-analysis of the deposited data

How the results depend on the processing

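The member values that passed were followed under the alternatives. Over the 25 member values that passed in a comparison, 393 values under alternatives gave 284 that passed again in the same direction, 109 that no longer passed and 0 in the other direction. These 25 were chosen because they passed and were refitted on mostly the same libraries, so a change of direction was unlikely beforehand. They include the pump subunits ATP6V0D1 and ATP6V1H and do not describe hydrolases alone. With RLE size factors the median of all genes shifted by -0.16 for MSC-CM against IL-1ß, by -0.12 for ACS against IL-1ß and by -0.11 for MSC-CM against untreated macrophages. The cause of the changes in counts below was not tested.

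Leaving out 1 library at a time gave 4 to 9 members past the test for PRP lysate against IL-1ß, 1 to 11 for ACS against IL-1ß (11 without IL-1ß replicate 1, with LIPA and MITF higher), 2 to 5 for PRP lysate against MSC-CM, 0 to 2 for ACS against MSC-CM, 0 for MSC-CM against untreated and 1 to 7 for PRP lysate against untreated macrophages. It gave 0 to 0 for IL-1ß against untreated, MSC-CM against IL-1ß, PRP lysate against ACS and ACS against untreated macrophages.

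Without IL-1ß replicate 3 and PRP lysate replicate 1, counts were 1 for IL-1ß against untreated, 8 for PRP lysate against MSC-CM, 7 for ACS against MSC-CM, and 7, 8 and 6 for MSC-CM, PRP lysate and ACS against untreated macrophages. For ACS against MSC-CM 14.2% of all genes passed in this setting. Shares of all genes for the other counts are not reported here, so those counts describe the members alone. DESeq2 called 1 for IL-1ß against untreated, 8 for ACS against IL-1ß, and 5, 10 and 4 for MSC-CM, PRP lysate and ACS against untreated macrophages. The shares of all genes called by DESeq2 are not reported here, so these counts cannot be set against all genes. With only the groups compared, counts were 1 and 0 for PRP lysate and ACS against IL-1ß, 2 and 8 against MSC-CM, and 3, 1 and 4 for MSC-CM, PRP lysate and ACS against untreated macrophages. Shares of all genes in those fits are not reported here either. ACS against MSC-CM gave 1 with TMM, 1 with RLE and 0 with edgeR, and MSC-CM against untreated gave 2 with TMM, 2 with RLE and 0 in the 12 libraries with numbered replicates. At 2-fold or more in the main model the counts were 1 and 2 for PRP lysate and ACS against IL-1ß, 1 and 1 against MSC-CM, and 0 and 1 for MSC-CM and PRP lysate against untreated macrophages.

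Only for MSC-CM and PRP lysate were the deviations of same-numbered samples positively correlated at every number. Even there, replicates 2 and 3 of MSC-CM correlated more with another PRP lysate number. In the other pairs of groups, with correlations from -0.775 to 0.59, same-numbered samples share only a number. With the replicate block in the 12 numbered libraries, 2 members passed for PRP lysate against IL-1ß and 2 against MSC-CM (LGMN and FUCA1 in both), 0 for MSC-CM and 1 for PRP lysate against untreated macrophages, and 0 for IL-1ß against untreated and MSC-CM against IL-1ß. With the block in the MSC-CM and PRP lysate libraries alone, 5 passed. ACS carries no replicate numbers and was not in the block. With 3 libraries a group, small changes can be missed. ASAH1 alone among the members found fell below a mean of 1 CPM, and the reason for its low counts was not tested.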

Other observations

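Of the further lysosomal genes, the following passed with MSC-CM plus IL-1ß against untreated macrophages. GM2A, the activator protein for ganglioside breakdown, was at 901, 783 and 793 CPM with MSC-CM and 1435, 1233 and 1343 in untreated macrophages (log2 fold change -0.69, SE 0.121, limma adjusted p = 0.0199). TCIRG1, the a3 subunit of the proton pump, was at 789, 718 and 749.95 CPM with MSC-CM and 1092, 1082 and 1065 in untreated macrophages (log2 fold change -0.52, SE 0.106, limma adjusted p = 0.0346). CLN8, a sorting factor of lysosomal enzymes, fell by 0.58 (adjusted p = 0.0397) and SIDT2, a lysosomal membrane protein, was higher by 0.69 (adjusted p = 0.0397) in limma on the log2 scale. The MSC-CM and untreated libraries did not overlap in any of these genes. With IL-1ß alone GM2A was at 860, 998 and 1000.1 CPM, TCIRG1 at 890, 1002 and 1066, CLN8 at 139.8, 149 and 140.0 and SIDT2 at 48.8, 57.2 and 56.2. The mean of IL-1ß alone thus lay on the same side of untreated macrophages in all 4 genes, and none passed for IL-1ß against untreated or for MSC-CM against IL-1ß in limma.

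With PRP lysate against MSC-CM, the acid phosphatase ACP2 was at 130.4, 173 and 144 CPM against 289, 229 and 296 (log2 fold change -0.86, SE 0.15, limma adjusted p = 0.00497). LAMP3, a lysosomal membrane protein of mature dendritic cells, was at 1.61, 1.58 and 1.27 CPM against 5.41, 6.27 and 4.84 (log2 fold change -1.39, limma adjusted p = 0.0377).

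Summed CPM of further cell type markers were, over all 15 libraries, 11.95 to 47.6 for B cells, 215 to 905 for NK cells, 150.1 to 349 for dendritic cells, 7609 to 16993 for osteoclasts and giant cells (a list that holds ACP5), 268 to 759 for neutrophils and 52.5 to 504 for endothelial cells. Platelet markers summed to 3.48 to 41.2 CPM with GP9 and GP1BA under 1 CPM in all libraries, and fibroblast and MSC markers to at most 2.94 CPM.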
